A study of Solanum lycopersicum with 18 samples.

Results

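The 68 genes described here are the tomato seed genes that were detected without elicitor and stood higher after methyl jasmonate (MeJA) in every genotype of the study. They were chosen from the deposited TPM table (a level per unit of transcript length, scaled to the same total in each library) by a rule on the measured values. A gene had to have a mean of at least 2 TPM in the mock-primed seeds of each genotype. Its mean in MeJA-primed seeds had to be at least 1.8 times that of mock-primed seeds in each genotype, and the lowest MeJA replicate had to lie above the highest mock replicate each time. Of 33976 genes in the table, 15235 reached the mock level in all 3 genotypes and 68 met the whole rule, which is 0.446% of those 15235. Because these values chose the genes, their MeJA and mock levels are given below as a description, without a test.

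The study compared mature seeds of 3 tomato (Solanum lycopersicum) genotypes. Stupicke is a large-fruit cultivar, Criollo a small-fruit cultivar, and Micro-Tom the dwarf laboratory reference. Seeds were imbibed for 48 h in the dark in a polyethylene glycol solution of -1 MPa, with 2 mM MeJA (MeJA-primed) or without elicitor (mock-primed). All seeds, mock included, were then washed and dried again for 48 h before polyadenylated RNA was sequenced. Each of the 6 groups held 3 biological replicates of 30 pooled seeds, so that the 18 libraries describe pools of whole seeds, in which fewer cells of a type and less RNA per cell cannot be told apart.

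Jasmonates are lipid hormones made from linolenic acid by lipoxygenase, allene oxide synthase, allene oxide cyclase and 12-oxophytodienoate reductase. Without the hormone, JAZ proteins hold back MYC transcription factors, and the active jasmonate lets the receptor COI1 mark JAZ proteins for destruction so that MYC targets are transcribed. These targets include the genes of jasmonate synthesis and of the JAZ repressors themselves, and in tomato leaves also genes of wound and defence proteins and of steroidal glycoalkaloids. In seeds, jasmonates have been linked with defence and with slower germination.

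Library totals lay between 18807931 and 20560389 estimated reads, and 1 library stood apart, the mock-primed Micro-Tom replicate 3, whose correlation with the other replicates of its group on the log2 scale was 0.972 and 0.976, against at least 0.991 within every other group. Markers of mature seeds, 22 storage, oil body and late embryogenesis genes taken from the study's list of exudate proteins, were detected in every group. That list came from exudates of MeJA-primed seeds, the 3 genotypes pooled, so the markers were not chosen independently of MeJA. Their summed level moved with MeJA in 2 genotypes. It ranged from 42746 to 67782 TPM in MeJA-primed Criollo against 25997 to 30622 TPM in mock-primed Criollo, and from 45104 to 59959 TPM in MeJA-primed Micro-Tom against 19898 to 24375 TPM in mock-primed Micro-Tom. In Stupicke the ranges overlapped, with 86869 to 109372 TPM in MeJA-primed and 79036 to 96831 TPM in mock-primed seeds. The part of this difference in the levels of the 68 genes was not tested. Green tissue genes could be searched only among genes annotated in the study's supplementary lists, which gave 2. These summed to at most 8.36 TPM in any library, and other green tissue genes were not examined. In Micro-Tom libraries short genes had 1.21 to 1.28 times more reads per TPM relative to long genes than the libraries of the other genotypes on average, whose own values were 0.976 to 1.03, and this property of the libraries and the genotype cannot be told apart.

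Across the 68 genes, the ratio of the MeJA mean to the mock mean had a median of 2.98 in Stupicke, 2.90 in Criollo and 3.62 in Micro-Tom, beside medians of 0.984, 0.913 and 1.05 over all 15235 genes with the mock level. The ratio reached 3 in every genotype for 18 of the 68 genes, 5 for 6 genes and 10 for 2 genes, and it stayed under 2 in some genotype for 18 genes. Micro-Tom had the largest of the 3 ratios for 37 genes, Stupicke for 18 and Criollo for 13. In replicate 3 of mock-primed Micro-Tom, 13 genes were low, with at least 2 times as much in the middle replicate of the group, and without this library Micro-Tom had the largest ratio for 34 genes and its median ratio was 3.27. The largest ratio was at most 1.5 times the smallest for 24 genes and at least 3 times the smallest for 10 genes. Together the 68 genes made up 5864 ± 1004 TPM in MeJA-primed and 1422 ± 38.5 TPM in mock-primed Stupicke, 5421 ± 102 TPM in MeJA-primed and 1569 ± 67.5 TPM in mock-primed Criollo, and 8625 ± 664 TPM in MeJA-primed and 1826 ± 124 TPM in mock-primed Micro-Tom (SD, n = 3 each). A single peroxidase gene held a large part of this sum, and without it the ratio of the sums was 3.77 in Stupicke, 3.21 in Criollo and 4.15 in Micro-Tom instead of 4.12, 3.45 and 4.72.

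**Figure D1:**
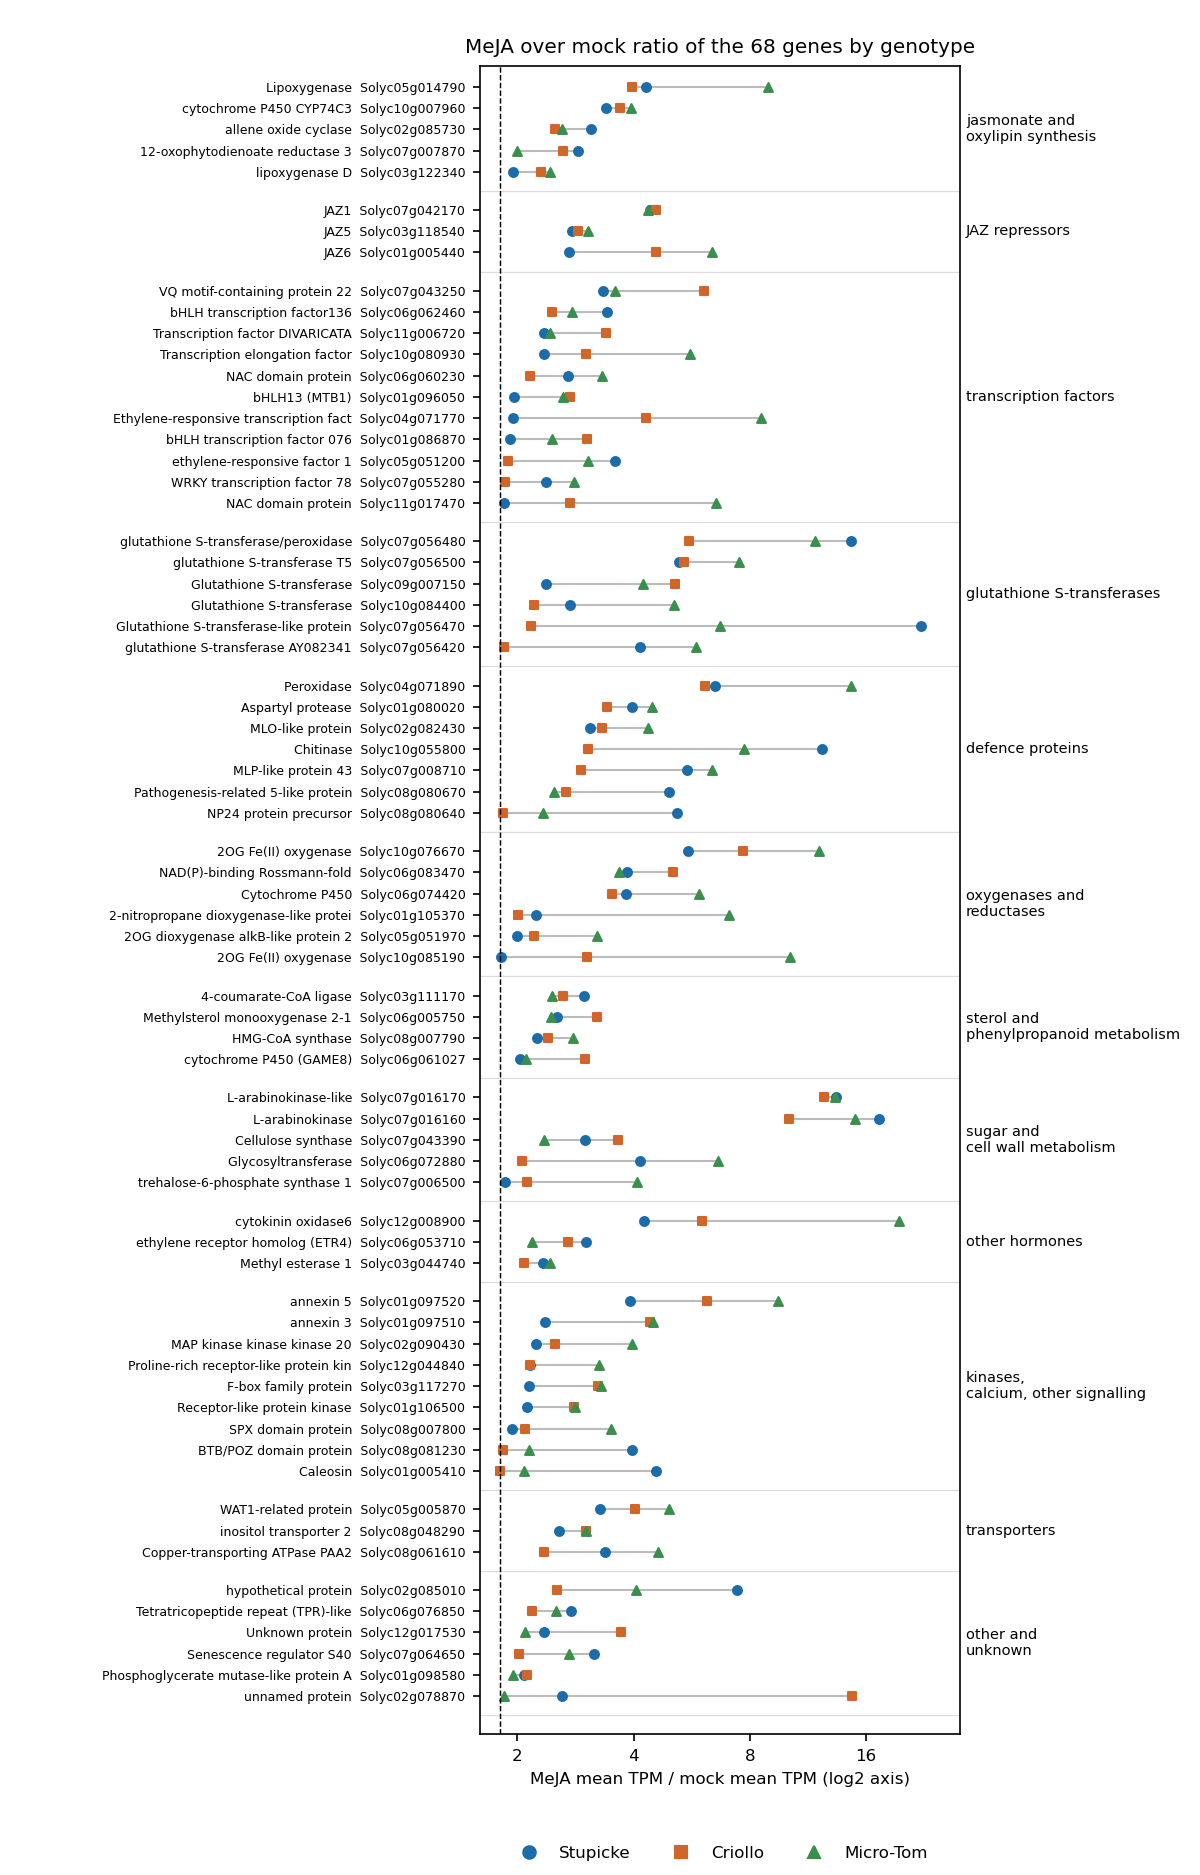
Ratio of mean TPM in MeJA-primed to mock-primed seeds for each of the 68 genes, on a log2 axis, with Stupicke as circles, Criollo as squares and Micro-Tom as triangles, grouped by annotated function; the dashed line marks the ratio of 1.8 used to choose the genes. The pair of L-arabinokinase genes had ratios of at least 10 in all 3 genotypes with all libraries included, and Micro-Tom had the largest ratio for 37 genes.

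Near the threshold of 1.8 the set ended with a caleosin gene (Solyc01g005410, ratio 1.80 in Criollo), an oxygenase gene (Solyc10g085190, 1.82 in Stupicke) and a BTB/POZ domain gene (Solyc08g081230, 1.84 in Criollo). Just outside lay Solyc01g006430, annotated as a fatty acid desaturase, with a ratio of 1.797 in Stupicke, the Rossmann-fold gene Solyc06g083480 with 1.795 in Stupicke and the polyamine oxidase gene Solyc01g087590 with 1.78 in Criollo. A further 5 genes reached the ratios in all genotypes but had overlapping replicates. At the mock level, the methyl esterase gene Solyc03g044740 was the lowest gene inside, with a mean of 2.02 TPM in mock-primed Stupicke, and the cytochrome P450 gene Solyc10g083400 the highest outside, with 1.90 TPM in mock-primed Criollo.

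In edgeR's quasi-likelihood test on the counts (Benjamini-Hochberg adjustment over 19914 genes, adjusted p under 0.05), which uses the same MeJA contrasts as the rule, 67 of the 68 genes passed the filter on low counts. MeJA-primed seeds were called higher for 62 of them in Stupicke, 60 in Criollo and 63 in Micro-Tom, where 1.45%, 3.19% and 7.98% of all genes tested were called higher, and 58 were called in all 3 genotypes. Since the rule fixed the direction, nothing is read from these counts. The gene left out by the filter, Solyc02g078870, is annotated only by similarity to an uncharacterised rapeseed protein.

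Of the enzymes of jasmonate and oxylipin synthesis, 5 genes were in the set. Lipoxygenase D (Solyc03g122340), which starts the jasmonate pathway by adding oxygen to linolenic acid, had 48.6, 36.5 and 38.7 TPM in MeJA-primed Stupicke, against 22.9, 17.6 and 23.1 TPM in mock-primed Stupicke. Its ratios were 1.95 in Stupicke, 2.31 in Criollo and 2.43 in Micro-Tom. Allene oxide cyclase (Solyc02g085730), which makes the ring of the jasmonate precursor, had 40.9, 48.1 and 35.3 TPM in MeJA-primed Stupicke, against 14.7, 15.8 and 9.52 TPM in mock-primed Stupicke. In Criollo the same gene had 114, 126 and 119 TPM after MeJA against 45.2, 45.5 and 52.5 TPM after mock priming, and in Micro-Tom 373, 420.1 and 355 TPM against 145, 138 and 155 TPM. Mock-primed Micro-Tom thus lay above MeJA-primed Stupicke and Criollo for this gene, while the MeJA over mock ratios stayed within 2.50 and 3.10.

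The reductase OPR3 (Solyc07g007870), a peroxisomal enzyme that reduces 12-oxophytodienoate, averaged 23.9 ± 1.88 TPM in MeJA-primed Stupicke and 8.34 ± 2.39 TPM in mock-primed Stupicke, 37.3 ± 4.19 TPM in MeJA-primed Criollo and 14.2 ± 2.09 TPM in mock-primed Criollo, and 50.4 ± 5.61 TPM in MeJA-primed Micro-Tom and 25.2 ± 0.206 TPM in mock-primed Micro-Tom (SD, n = 3 each). Its smallest ratio, 2.00, was in Micro-Tom, where the mock level was highest. A further lipoxygenase gene (Solyc05g014790) had the widest range among these enzymes, with ratios of 4.30 in Stupicke, 3.95 in Criollo and 8.89 in Micro-Tom. In Micro-Tom it had 48.0, 54.6 and 45.9 TPM in MeJA-primed Micro-Tom, against 6.82, 7.05 and 2.85 TPM in mock-primed Micro-Tom, and replicate 3 of the mock group was the low library. The cytochrome P450 CYP74C3 (Solyc10g007960), of the family that acts on fatty acid hydroperoxides, was the most abundant of the 5, with 567, 684 and 615 TPM in MeJA-primed Micro-Tom, against 162, 202 and 109 TPM in mock-primed Micro-Tom. Its ratios differed little between genotypes, at 3.40 in Stupicke, 3.68 in Criollo and 3.95 in Micro-Tom.

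The 3 JAZ genes of the set, named here JAZ1, JAZ5 and JAZ6 as is usual in tomato (the deposited annotation carries tobacco numbers), were the only listed JAZ genes with at least 2 TPM on average in mock-primed seeds. JAZ1 (Solyc07g042170) had 228, 229 and 214 TPM in MeJA-primed Stupicke, against 56.6, 51.7 and 43.9 TPM in mock-primed Stupicke. In Criollo it had 310.5, 333 and 319 TPM after MeJA against 67.2, 83.0 and 60.3 TPM after mock priming, and in Micro-Tom 777, 748 and 766 TPM against 152, 145 and 229.9 TPM. The levels differed more between genotypes than the ratios. With all libraries included, JAZ1 had the narrowest range of ratios of all 68 genes, from 4.35 to 4.57. This range depended on replicate 3 of mock-primed Micro-Tom, the highest of its group, without which the ratio in Micro-Tom was 5.15. JAZ5 (Solyc03g118540) had ratios of 2.78 in Stupicke, 2.88 in Criollo and 3.05 in Micro-Tom, and JAZ6 (Solyc01g005440) of 2.72 in Stupicke, 4.58 in Criollo and 6.40 in Micro-Tom. For JAZ6 the mock levels of Stupicke and Micro-Tom overlapped (25.4, 21.7 and 25.2 TPM in mock-primed Stupicke and 29.1, 28.3 and 18.5 TPM in mock-primed Micro-Tom), while after MeJA Micro-Tom had 147, 172 and 167 TPM and Stupicke 60.8, 72.3 and 63.3 TPM.

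Outside the set, 6 more JAZ genes could be tested and were called higher in MeJA-primed seeds of every genotype (edgeR), beside 1.45%, 3.19% and 7.98% of all genes in Stupicke, Criollo and Micro-Tom. Their mock means were at most 1.03 TPM, under the level of the rule. JAZ3 (Solyc03g122190), for example, averaged 34.4 TPM in MeJA-primed and 0.548 TPM in mock-primed Stupicke, a log2 difference of 5.98 ± 0.29 (SE) in edgeR at adjusted p = 8.21e-09. In Criollo it averaged 34.0 TPM after MeJA and 0.350 TPM after mock priming, and in Micro-Tom 112 TPM and 1.03 TPM. JAZ2 (Solyc12g009220) averaged 143 TPM in MeJA-primed Micro-Tom and 0.682 TPM in mock-primed Micro-Tom.

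The set held 11 genes of transcription factors and related regulators, from 7.00 to 127 TPM in the mean of the 9 MeJA libraries. The bHLH13 gene Solyc01g096050, known in tomato as MTB1, a bHLH protein that acts against MYC2, had 27.9, 30.5 and 31.98 TPM in MeJA-primed Micro-Tom, against 11.5, 15.5 and 7.39 TPM in mock-primed Micro-Tom. Its levels were lower in the other genotypes, with 6.80 ± 0.664 TPM in MeJA-primed and 3.47 ± 0.595 TPM in mock-primed Stupicke (SD, n = 3 each), and its ratios were 1.96 in Stupicke, 2.74 in Criollo and 2.63 in Micro-Tom. The ethylene-responsive factor gene Solyc04g071770 differed in its mock level, with 51.0, 45.4 and 49.2 TPM in mock-primed Stupicke, 11.2, 9.28 and 11.5 TPM in Criollo and 12.7, 15.3 and 5.45 TPM in Micro-Tom. After MeJA, Stupicke had 89.6, 91.6 and 102 TPM and Micro-Tom 87.4, 101 and 97.95 TPM, which overlapped, so that the ratio was 1.95 in Stupicke and 8.57 in Micro-Tom.

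A NAC domain gene (Solyc11g017470) also had its highest mock level in Stupicke, with 64.8 ± 2.85 TPM against 24.9 ± 5.43 TPM in mock-primed Micro-Tom. After MeJA the order was reversed without overlap, with 106, 114 and 140 TPM in Stupicke and 178, 162 and 147 TPM in Micro-Tom. Its ratios were 1.85 in Stupicke, 2.73 in Criollo and 6.52 in Micro-Tom. The ethylene-responsive factor 1 gene (Solyc05g051200) stood highest in Stupicke, with 32.2, 30.0 and 27.2 TPM in MeJA-primed Stupicke against 5.34, 9.58 and 10.1 TPM in mock-primed Stupicke, and at most 15.4 TPM in any library of the other genotypes. The highest of the smallest ratios in this group, 3.34, belonged to a VQ motif gene (Solyc07g043250), whose protein family binds WRKY factors. Among the rest, 2 bHLH genes, a second NAC gene, a DIVARICATA-like gene, a transcription elongation factor gene and the WRKY factor 78 gene had ratios between 1.86 and 5.60.

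Glutathione S-transferases, enzymes that join glutathione to reactive compounds, gave 6 genes. Summed over the 6, MeJA-primed Micro-Tom had 1249, 1060.1 and 1096 TPM against 114, 106 and 135 TPM in mock-primed Micro-Tom. Criollo had 243, 326 and 218 TPM after MeJA against 65.7, 56.5 and 69.6 TPM after mock priming, and Stupicke 195, 257 and 716 TPM against 70.2, 73.7 and 75.2 TPM. The groups could not overlap in any genotype, since the rule excluded overlap for each gene, but replicate 3 of MeJA-primed Stupicke stood far above the other 2 replicates. This library was decisive for the glutathione S-transferase-like gene Solyc07g056470, which had 3.98, 7.06 and 143 TPM in MeJA-primed Stupicke, against 3.02, 2.06 and 1.88 TPM in mock-primed Stupicke, and whose ratio of 22.1 in Stupicke, the highest in the whole set, came to 2.38 without that library. For Solyc10g084400 the ratio was 2.73 in Stupicke and 1.64, under the threshold of the rule, without it. For glutathione S-transferase T5 (Solyc07g056500) it was 5.25 and 3.45 without it. The other 2 genes, Solyc07g056420 and Solyc09g007150, had ratios between 1.84 and 5.80.

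The most abundant gene of this family, Solyc07g056480, annotated as glutathione S-transferase/peroxidase, had 947, 769.7 and 813 TPM in MeJA-primed Micro-Tom, against 70.4, 59.1 and 85.3 TPM in mock-primed Micro-Tom. In Criollo it had 157, 221 and 117 TPM after MeJA against 30.7, 24.2 and 34.1 TPM after mock priming, and in Stupicke 90.8, 119.5 and 257 TPM after MeJA against 11.1, 12.48 and 8.48 TPM after mock priming. All MeJA libraries lay above all mock libraries of the same genotype, as the rule required, and the ratios were 14.6 in Stupicke, 5.56 in Criollo and 11.8 in Micro-Tom. The genes Solyc07g056420, Solyc07g056470, Solyc07g056480 and Solyc07g056500 carry nearly consecutive identifiers on chromosome 7. Of the 5 other genes interleaved with them, 4 stayed under 7 TPM on average in every group. Solyc07g056490, the most abundant of the 5, averaged 33.9 TPM in MeJA-primed and 34.5 TPM in mock-primed Stupicke, 54.2 and 53.8 TPM in Criollo, and 39.4 and 55.3 TPM in Micro-Tom. The next gene, Solyc07g056510, was higher after MeJA in every genotype, with 9.46 TPM in MeJA-primed and 0.356 TPM in mock-primed Stupicke, but was under the mock level of the rule. Salmon divides reads between similar transcripts, so the values of these paralogs are not independent of each other.

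**Figure D2:**
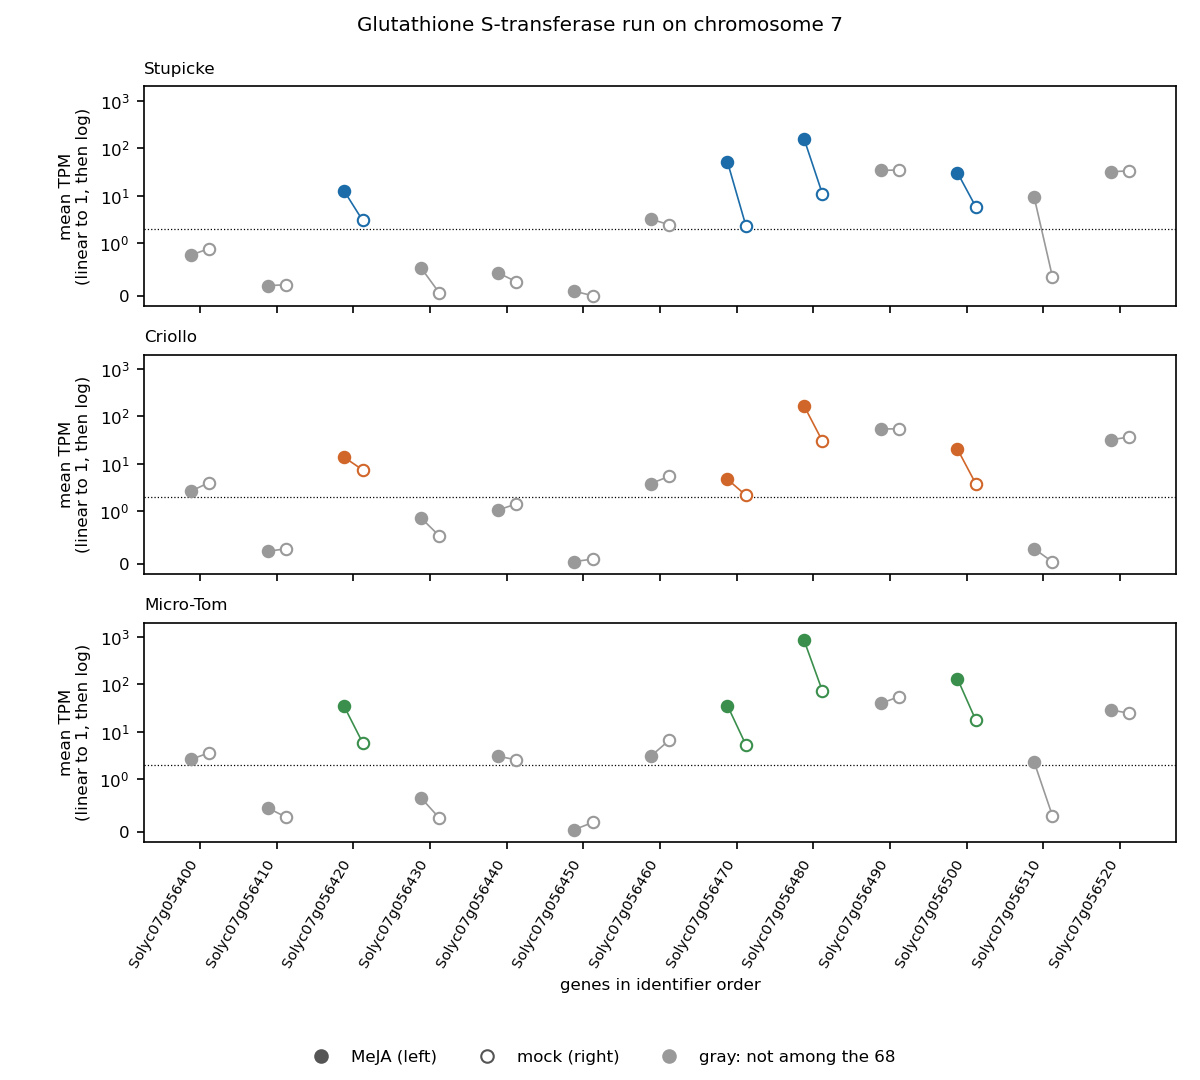
Mean TPM (linear up to 1, logarithmic above) of 13 genes with consecutive identifiers on chromosome 7, with MeJA as filled points at the left and mock as open points at the right of each gene, in 1 panel per genotype; gray genes are not among the 68 and the dotted line marks 2 TPM. The 4 coloured glutathione S-transferase genes were higher after MeJA in all panels, as the rule required, while Solyc07g056490 among them averaged 33.9 TPM in MeJA-primed and 34.5 TPM in mock-primed Stupicke.

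Among 7 genes of defence-related proteins, the peroxidase gene Solyc04g071890 had the highest level of the whole set. It had 975.3, 1380.0 and 1243 TPM in MeJA-primed Stupicke, against 148, 172 and 234 TPM in mock-primed Stupicke, 777, 841 and 765 TPM in MeJA-primed Criollo, against 110.3, 139.9 and 139 TPM in mock-primed Criollo, and 1589, 1558 and 1221 TPM in MeJA-primed Micro-Tom, against 94.5, 124.5 and 78.9 TPM in mock-primed Micro-Tom. Mock levels overlapped between Micro-Tom and Criollo, and the ratio was largest in Micro-Tom at 14.7, against 6.499 in Stupicke and 6.12 in Criollo. The MLP-like protein 43 gene (Solyc07g008710), of the major latex protein family, had 719, 1154 and 1008 TPM in MeJA-primed Stupicke, against 151, 174 and 199 TPM in mock-primed Stupicke. Its ratios were 5.50 in Stupicke, 2.92 in Criollo and 6.38 in Micro-Tom. A chitinase gene (Solyc10g055800), whose protein cuts the chitin of fungal walls, had 153, 246 and 391 TPM in MeJA-primed Stupicke, against 20.2, 25.1 and 18.8 TPM in mock-primed Stupicke. Its ratio was 12.3 in Stupicke and 9.33 without replicate 3 of the MeJA group, 3.05 in Criollo and 7.70 in Micro-Tom.

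The thaumatin-like protein NP24 (Solyc08g080640) showed a large difference between genotypes. It had 205, 331 and 319 TPM in MeJA-primed Stupicke, against 48.1, 66.9 and 50.4 TPM in mock-primed Stupicke. In Criollo it had only 12.03, 10.7 and 14.8 TPM after MeJA against 6.20, 7.86 and 6.34 TPM after mock priming, and in Micro-Tom 385, 275 and 243 TPM against 128, 164 and 95.6 TPM. The neighbouring PR5-like gene Solyc08g080670 was ordered otherwise, with 133 ± 66.9 TPM in MeJA-primed and 49.6 ± 16.9 TPM in mock-primed Criollo, and 36.6 ± 6.65 TPM and 14.7 ± 2.14 TPM in Micro-Tom (SD, n = 3 each). The 2 thaumatin-type genes between them, Solyc08g080650 and Solyc08g080660, were outside the set through their ratios of 1.63 and 1.12 in Criollo. In Stupicke these ratios were 5.03 and 2.99, and in Micro-Tom 2.30 and 2.18. An MLO-like gene (Solyc02g082430) and an aspartyl protease gene (Solyc01g080020) completed the group, with ratios between 3.09 and 4.47.

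**Figure D3:**
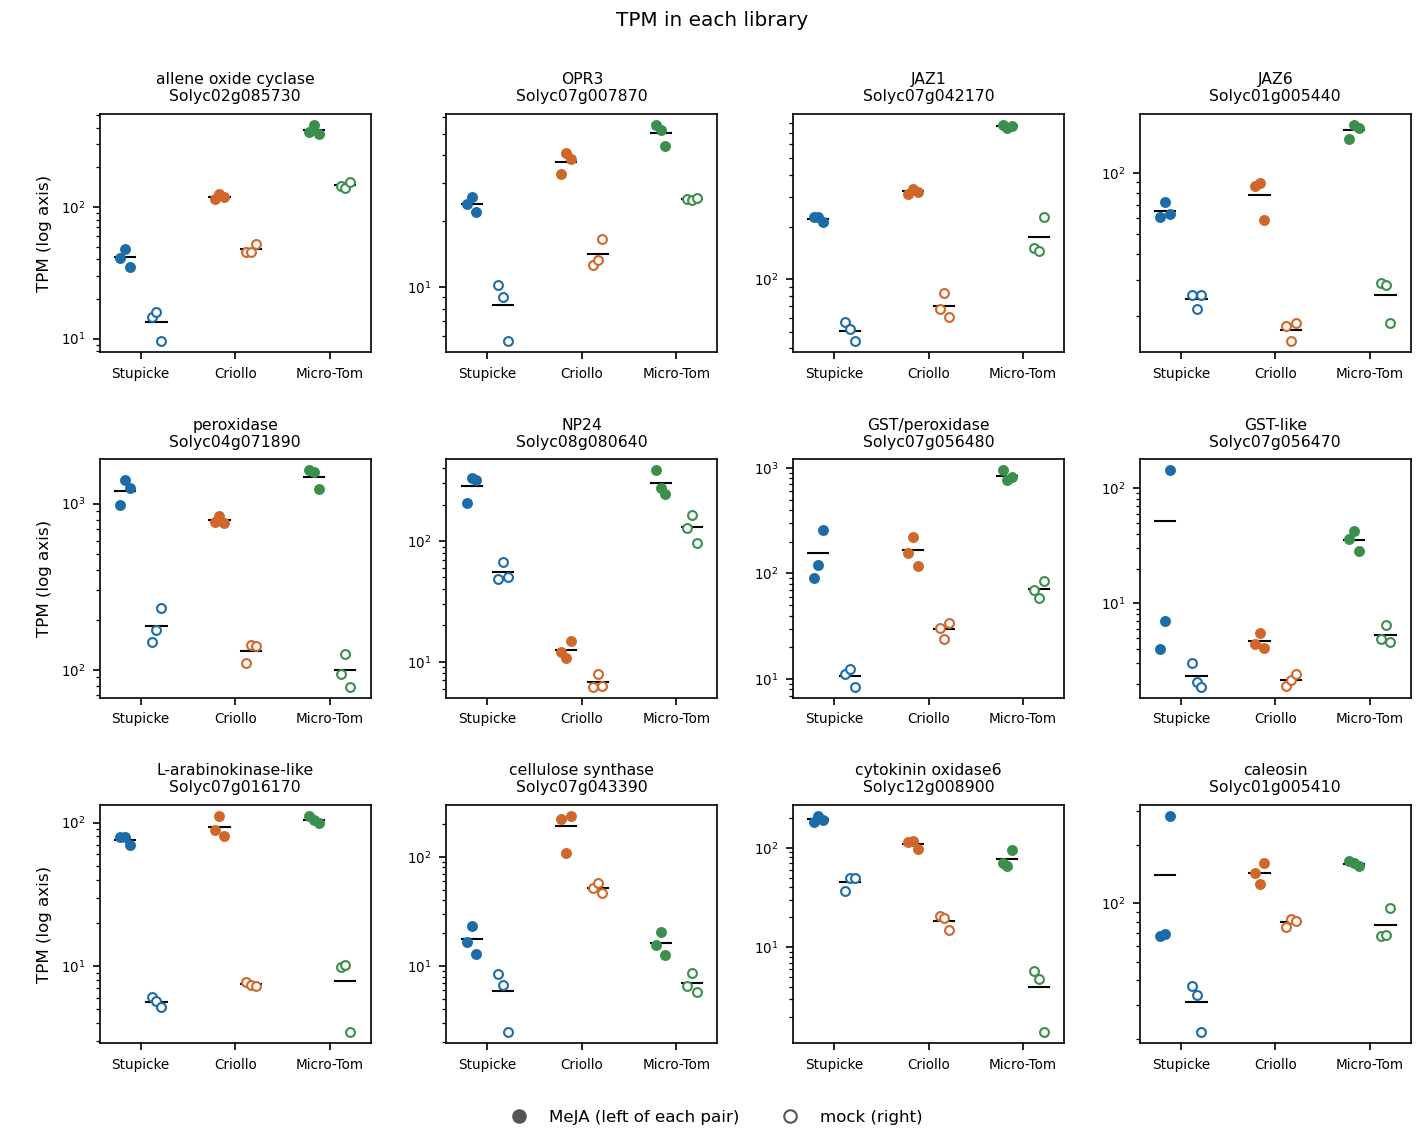
TPM in each library (log axis) for 12 of the 68 genes, with 3 MeJA libraries as filled points left of 3 mock libraries as open points in each genotype and a bar at the mean. MeJA libraries lay above the mock libraries of the same genotype in every panel, as the rule required; NP24 was low in Criollo, and replicate 3 of MeJA-primed Stupicke was high for the glutathione S-transferase-like and caleosin genes.

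Of the 6 oxygenase and reductase genes, the 2-oxoglutarate-dependent oxygenase gene Solyc10g076670 had the largest ratios, at 5.54 in Stupicke, 7.67 in Criollo and 12.1 in Micro-Tom. It had 232, 198 and 172 TPM in MeJA-primed Micro-Tom, against 18.2, 18.0 and 13.5 TPM in mock-primed Micro-Tom. A second gene with the same annotation (Solyc10g085190) had the smallest, 1.82 in Stupicke, but 10.2 in Micro-Tom, where the mock libraries had 2.48, 2.66 and 1.597 TPM against 10.5, 11.5 and 9.75 TPM in mock-primed Stupicke. After MeJA this gene had similar levels, 19.5, 20.9 and 17.3 TPM in Stupicke, 19.03, 17.7 and 16.4 TPM in Criollo and 26.4, 23.0 and 19.1 TPM in Micro-Tom. A Rossmann-fold reductase gene (Solyc06g083470) averaged 68.8 ± 10.6 TPM in MeJA-primed Micro-Tom and 18.8 ± 5.65 TPM in mock-primed Micro-Tom (SD, n = 3 each), and a cytochrome P450 gene (Solyc06g074420) had ratios of 3.82 in Stupicke, 3.51 in Criollo and 5.92 in Micro-Tom. A 2-nitropropane dioxygenase-like gene (Solyc01g105370) had its largest ratio, 7.05, in Micro-Tom and its smallest, 2.00, in Criollo, and an alkB-like dioxygenase gene (Solyc05g051970) had ratios of 2.00 in Stupicke, 2.21 in Criollo and 3.21 in Micro-Tom.

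In sterol and phenylpropanoid metabolism, the cytochrome P450 gene Solyc06g061027, known as GAME8 for its hydroxylation of cholesterol in glycoalkaloid synthesis, had 314, 235 and 296 TPM in MeJA-primed Criollo, against 94.6, 92.9 and 94.3 TPM in mock-primed Criollo. It had 126 ± 9.06 TPM in MeJA-primed and 62.1 ± 4.26 TPM in mock-primed Stupicke, and 167 ± 3.18 TPM and 79.6 ± 14.9 TPM in Micro-Tom (SD, n = 3 each). A methylsterol monooxygenase gene (Solyc06g005750), which removes methyl groups from sterols, was likewise highest in Criollo, with 93.9, 59.2 and 90.1 TPM after MeJA against 24.0, 32.4 and 19.3 TPM after mock priming. The hydroxymethylglutaryl-CoA synthase gene (Solyc08g007790), at the start of the mevalonate pathway, had ratios of 2.25 in Stupicke, 2.40 in Criollo and 2.79 in Micro-Tom. The 4-coumarate-CoA ligase gene (Solyc03g111170), which activates phenolic acids, had ratios of 2.97 in Stupicke, 2.63 in Criollo and 2.46 in Micro-Tom, so that no gene of this group exceeded a ratio of 3.22.

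The cellulose synthase-annotated gene Solyc07g043390, counted under sugar and cell wall metabolism by this annotation alone, was mostly a Criollo transcript. It had 223, 109 and 238 TPM in MeJA-primed Criollo, against 51.9, 58.1 and 46.9 TPM in mock-primed Criollo. The other genotypes had 16.4, 23.2 and 12.8 TPM in MeJA-primed and 8.38, 6.69 and 2.47 TPM in mock-primed Stupicke, and 15.5, 20.6 and 12.6 TPM and 6.51, 8.54 and 5.78 TPM in Micro-Tom. By identifier it lies just before a row of listed glycoalkaloid genes on chromosome 7, and its own part in that pathway was not examined. Solyc07g043410, annotated as a glycosyltransferase and not on the list, lies before the first listed gene and had a ratio of 0.951 in Stupicke. The nearest listed gene, GAME11 (Solyc07g043420), averaged 7034 TPM in MeJA-primed and 1515 TPM in mock-primed Criollo. It averaged 1394 TPM after MeJA and 831 TPM after mock priming in Stupicke, and 1795 TPM and 604 TPM in Micro-Tom. With a ratio of 1.68 in Stupicke, GAME11 was not in the set. In the same row, GAME18 (Solyc07g043500) reached the ratios in all genotypes but its replicates overlapped.

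The only genes with a ratio of at least 10 in all 3 genotypes were a pair of neighbours on chromosome 7. They are annotated as L-arabinokinase (Solyc07g016160) and L-arabinokinase-like (Solyc07g016170), a name for enzymes that phosphorylate free arabinose. Of these, Solyc07g016170 had 78.7, 79.1 and 69.6 TPM in MeJA-primed Stupicke, against 6.10, 5.70 and 5.21 TPM in mock-primed Stupicke. It had 88.0, 112 and 81.1 TPM in MeJA-primed Criollo, against 7.804, 7.39 and 7.33 TPM in mock-primed Criollo, and 111, 104 and 99.9 TPM in MeJA-primed Micro-Tom, against 9.91, 10.2 and 3.47 TPM in mock-primed Micro-Tom. The ratios were 13.4 in Stupicke, 12.46 in Criollo and 13.3 in Micro-Tom. Replicate 3 of mock-primed Micro-Tom was low, and without it the ratio in Micro-Tom was 10.4. Solyc07g016160 had 41.2, 50.5 and 49.9 TPM in MeJA-primed Micro-Tom, against 3.51, 5.96 and 0 TPM in mock-primed Micro-Tom. The value listed for mock replicate 3 was 0. The ratio of 14.95 came to 9.97 without that replicate, under 10, and to 26.9 without mock replicate 2. The ratios of Solyc07g016160 rest on few mock reads, with 9, 10 and 17 estimated counts in Stupicke, 32, 19 and 28 in Criollo and 14, 24 and 0 in Micro-Tom. In replicate 1 of MeJA-primed Stupicke it had 210 counts at 50.4 TPM and Solyc07g016170 4738 counts at 78.7 TPM, so its transcript model is much shorter. Whether reads were divided between the 2 genes was not examined. The genes on either side of the pair, Solyc07g016150 and Solyc07g016180, had ratios between 0.845 and 1.47 in the 3 genotypes. A glycosyltransferase gene (Solyc06g072880) had ratios of 4.15 in Stupicke, 2.06 in Criollo and 6.63 in Micro-Tom, and a trehalose-6-phosphate synthase gene (Solyc07g006500) a ratio of 1.86 in Stupicke that came to 1.27 without replicate 3 of the MeJA group.

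Genes of other hormones were represented by 3 members. Cytokinin oxidase6 (Solyc12g008900), which breaks down cytokinins, had 180.3, 211 and 192 TPM in MeJA-primed Stupicke, against 37.0, 50.2 and 49.96 TPM in mock-primed Stupicke, 113, 118 and 97.95 TPM in MeJA-primed Criollo, against 20.5, 19.8 and 14.7 TPM in mock-primed Criollo, and 70.6, 65.0 and 94.8 TPM in MeJA-primed Micro-Tom, against 5.69, 4.75 and 1.39 TPM in mock-primed Micro-Tom. The order of genotypes was the same after both treatments, with Stupicke highest and Micro-Tom lowest and no overlap between genotypes, and the ratio of 19.5 in Micro-Tom stood beside 4.25 in Stupicke. Without replicate 3 of mock-primed Micro-Tom, the low library there, the ratio in Micro-Tom was 14.7. The ethylene receptor gene ETR4 (Solyc06g053710) had ratios of 3.02 in Stupicke, 2.71 in Criollo and 2.19 in Micro-Tom. Replicate 3 of mock-primed Micro-Tom was low for it too, and the Micro-Tom ratio was 1.81 without that library. By its own test, the paper places ETR4 among the genes upregulated in Stupicke and Criollo, outside those shared by all genotypes. A methyl esterase gene (Solyc03g044740), of a family that removes methyl groups from hormone esters, was the least abundant gene of the set, with 6.37 TPM in the mean of the 9 MeJA libraries.

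Signalling proteins formed a group of 9 genes with mostly modest levels. The annexin genes Solyc01g097510 and Solyc01g097520, neighbours on chromosome 1 that code for calcium-dependent membrane-binding proteins, both had their smallest ratio in Stupicke, 2.35 and 3.92, and their largest in Micro-Tom, 4.49 and 9.48. The second of them had 119.8, 97.9 and 98.8 TPM in MeJA-primed Micro-Tom, against 12.2, 9.69 and 11.5 TPM in mock-primed Micro-Tom, and 17.4, 43.2 and 15.4 TPM in MeJA-primed Stupicke, against 5.88, 7.90 and 5.58 TPM in mock-primed Stupicke. Replicate 2 of MeJA-primed Stupicke was the high library there, and the ratio came to 2.54 without it. The caleosin gene (Solyc01g005410), for a calcium-binding protein of oil bodies, had 68.1, 69.6 and 284 TPM in MeJA-primed Stupicke, against 37.4, 33.5 and 21.6 TPM in mock-primed Stupicke, and its ratio in Stupicke was 4.57 with and 2.24 without replicate 3. The BTB/POZ domain gene (Solyc08g081230) had a like pattern, with 18.8, 16.9 and 91.3 TPM in MeJA-primed and 11.96, 10.7 and 9.49 TPM in mock-primed Stupicke, and a ratio of 3.95 with and 1.67 without that library. A MAP kinase kinase kinase 20 gene (Solyc02g090430), a PERK13-like and another receptor-like kinase gene, an F-box gene and the SPX domain gene Solyc08g007800, whose family senses phosphate, had ratios between 1.93 and 3.95.

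The 3 transporter genes, for a WAT1-related protein (Solyc05g005870), inositol transporter 2 (Solyc08g048290) and the copper ATPase PAA2 (Solyc08g061610), had ratios between 2.34 and 4.95. Of the 6 genes with other or no known function, Solyc02g085010 was high in replicate 3 of MeJA-primed Stupicke alone, at 12.1, 12.3 and 109.7 TPM against 5.10, 6.86 and 6.15 TPM in mock-primed Stupicke, and its ratio of 7.41 came to 2.02 without it. The unnamed gene Solyc02g078870 had the largest ratio of the set in Criollo, 14.7, where mock libraries had 0, 3.11 and 3.32 TPM, and the smallest in Micro-Tom, 1.85. These ratios rest on very few reads, with 0, 1 and 1 estimated counts in mock-primed and 10, 6 and 12 in MeJA-primed Criollo. The other 4 genes of this group, for a tetratricopeptide repeat protein, a senescence regulator S40, a phosphoglycerate mutase-like protein and an unknown protein, had ratios between 1.94 and 3.71. In all, 9 of the 204 ratios moved by more than 1.5 times when a single library was left out, 6 of them with replicate 3 of MeJA-primed Stupicke.

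Position was not used to choose the genes. By the chromosome number in the identifier, 14 of the 68 genes (20.6%) were on chromosome 7, where 7.62% of the 15235 genes with the mock level lie, and 10 (14.7%) on chromosome 1, where 12.9% lie. The identifiers of 14 genes came within 100 numbers of another gene of the set. Besides the glutathione S-transferase, L-arabinokinase, annexin and thaumatin-like neighbours these were the caleosin gene with JAZ6 on chromosome 1, with 2 genes between them, and hydroxymethylglutaryl-CoA synthase with the SPX domain gene on chromosome 8, with none between. Apart from these last 2 pairs, the neighbours belong to the same gene family. The share with such a neighbour among all 15235 genes with the mock level was not computed, so nothing is read from the count of 14.

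Levels of the genes in the 3 genotypes, averaged over MeJA and mock on the log scale, are not what the ratio compared, although the rule set a minimum for them through the mock mean of 2 TPM. They are not free of the rule either, since it used the MeJA values, and a larger MeJA response in a genotype raises its average. The averaged levels were tested with edgeR over all 19914 genes, where p-values rest on a spread between replicates estimated from all 6 groups together. Replicates were pools of 30 seeds, and the paper took RNA from the seed lot that gave the exudates. Genotype and seed lot therefore cannot be told apart, and the p-values do not cover differences between lots or plants. Of the 67 genes tested, 28 had a higher level in Stupicke than in Criollo (23.5% of all genes) and 16 a lower one (25.6% of all genes), together 65.7%, beside 49.1% of all genes. Between Stupicke and Micro-Tom, 16 had a higher level in Stupicke (32.2% of all genes) and 31 a lower one (34.3%), together 70.1%, beside 66.5% of all genes, a share near the background. Between Criollo and Micro-Tom, 14 had a higher level in Criollo (29.1% of all genes) and 34 a lower one, together 71.6%, beside 59.1% of all genes, and the 34 lower genes were 50.7%, where 30.1% of all genes were lower. The median log2 difference was 0.15 for Stupicke versus Criollo, -0.22 for Stupicke versus Micro-Tom and -0.46 for Criollo versus Micro-Tom, where the medians over all genes were within 0.02 of 0. Among the 15123 tested genes that met the mock minimum, a background added after the results were seen, 47.1%, 66.6% and 58.1% were called in the 3 pairs, and 29.4% were lower in Criollo than in Micro-Tom. With limma on log2(TPM + 1), the genes higher in Stupicke than in Criollo were 16 instead of 28. In MeJA libraries alone, 11 (16.4%) were higher in Stupicke than in Criollo, beside 11% of all genes. There 8 (11.9%) were higher in Stupicke than in Micro-Tom and 8 (11.9%) higher in Criollo than in Micro-Tom, beside 21.7% and 19.1% of all genes. In the same libraries 25 (37.3%) were lower in Stupicke than in Micro-Tom, beside 22.5%, and 34 (50.7%) lower in Criollo than in Micro-Tom, beside 20%, but the rule used the MeJA levels. In mock libraries alone 22 (32.8%) were lower in Criollo than in Micro-Tom, beside 26.2% of all genes.

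**Figure D4:**
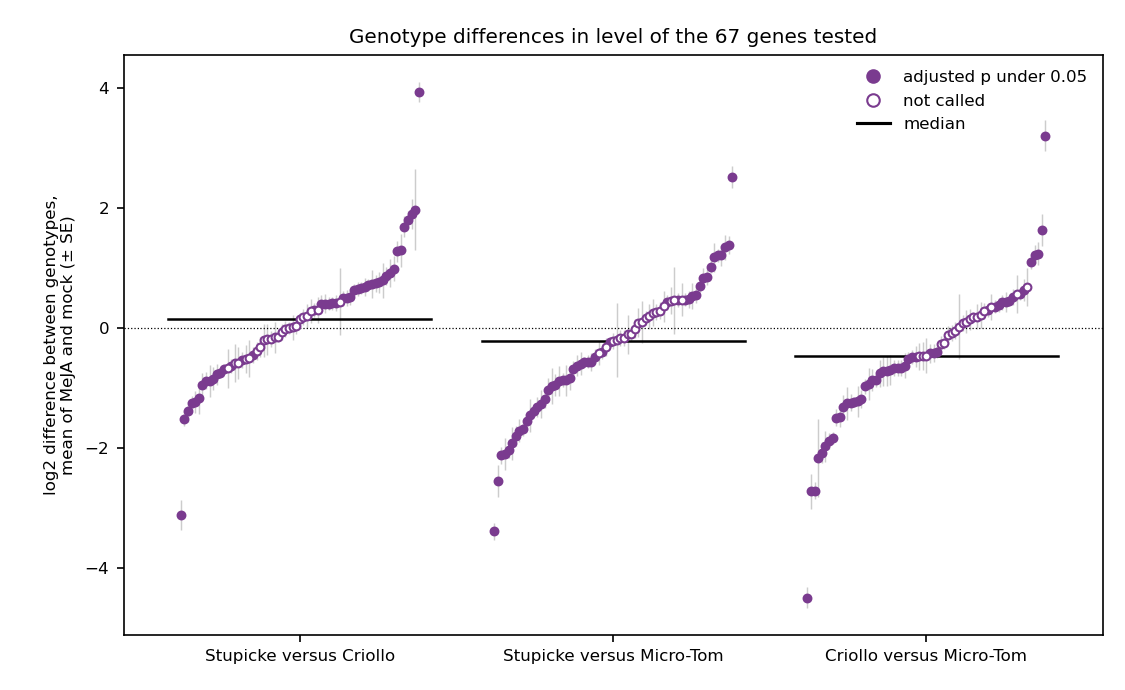
Log2 difference between genotypes, averaged over MeJA and mock, with its SE for each of the 67 genes tested, sorted within each pair; filled points had an adjusted p under 0.05 in edgeR and the black bar is the median. The median lay at 0.15, -0.22 and -0.46 in the 3 pairs, and 34 genes were lower in Criollo than in Micro-Tom.

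Micro-Tom was higher than both other genotypes for 23 of the 67 genes (34.3%), beside 21.5% of all genes tested, Stupicke for 12 (17.9%), beside 15%, and Criollo for 7 (10.4%), beside 9.77%. In mock libraries alone Micro-Tom was higher than both for 15 of the 67 (22.4%), a share near the 18.4% of all genes, and in MeJA libraries alone, whose values the rule used, for 19 (28.4%), beside 13% of all genes. All 5 genes of jasmonate and oxylipin synthesis and all 3 JAZ genes were among the 23. In mock libraries alone, 6 of these 8 were higher in Micro-Tom than in both others, the exceptions being the lipoxygenase Solyc05g014790 and JAZ6, and in MeJA libraries alone 7, the exception being OPR3. In TPM the lowest MeJA-primed Micro-Tom library lay above every MeJA-primed Stupicke and Criollo library for all 8. Allene oxide cyclase had a log2 difference of -3.39 ± 0.14 (SE), adjusted p = 2.89e-11 between Stupicke and Micro-Tom, and -1.51 ± 0.13 (SE), adjusted p = 2.28e-07 between Stupicke and Criollo (edgeR). JAZ1 had a log2 difference of -1.80 ± 0.17 (SE), adjusted p = 1.94e-07 between Stupicke and Micro-Tom, and -1.49 ± 0.17 (SE), adjusted p = 2.01e-06 between Criollo and Micro-Tom, while Stupicke and Criollo did not pass the test for it, at -0.31 ± 0.17 (SE), adjusted p = 0.131, with a 95% interval of -0.68 to 0.05.

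The difference of allene oxide cyclase was the largest of the set between Stupicke and Micro-Tom, and NP24 had the largest in the other pairs. NP24 (Solyc08g080640) had a log2 difference of 3.94 ± 0.17 (SE), adjusted p = 1.51e-10 between Stupicke and Criollo, and -4.50 ± 0.18 (SE), adjusted p = 1.77e-11 between Criollo and Micro-Tom (edgeR). The cellulose synthase-annotated gene (Solyc07g043390) was the reverse, with -3.12 ± 0.25 (SE), adjusted p = 1.28e-07 between Stupicke and Criollo, and 3.21 ± 0.26 (SE), adjusted p = 4.75e-08 between Criollo and Micro-Tom. Cytokinin oxidase6 was higher in Stupicke than in Micro-Tom by 2.52 ± 0.19 (SE), adjusted p = 1.62e-08 on the log2 scale. The ethylene-responsive factor gene Solyc04g071770 was higher in Stupicke than in Micro-Tom by 1.39 ± 0.15 (SE), adjusted p = 6.27e-07, but by 0.33 ± 0.20 (SE), adjusted p = 0.195, in MeJA libraries alone. The glutathione S-transferase/peroxidase gene Solyc07g056480 was lower in Stupicke than in Micro-Tom, at -2.56 ± 0.27 (SE), adjusted p = 6.67e-07. Glutathione S-transferase T5 (Solyc07g056500) was lower in Criollo than in Micro-Tom, at -2.72 ± 0.29 (SE), adjusted p = 1.22e-06. The PR5-like gene Solyc08g080670 was higher in Criollo than in Micro-Tom, by 1.64 ± 0.27 (SE), adjusted p = 9.44e-05. The glutathione S-transferase-like gene Solyc07g056470, higher in Stupicke than in Criollo by 1.97 ± 0.67 (SE), adjusted p = 0.0234, lost this call without replicate 3 of MeJA-primed Stupicke, at 0.38 and adjusted p = 0.137, and without replicate 1 of mock-primed Stupicke, at 1.86 and adjusted p = 0.0533. The L-arabinokinase-like gene Solyc07g016170 was not called in any pair, with log2 differences from -0.22 to -0.04.

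Other genes of the same pathways, listed from general knowledge of tomato and not in the set, could be tested against mock in 33 cases per genotype. MeJA-primed seeds were called higher for 13 in Stupicke, 20 in Criollo and 22 in Micro-Tom (edgeR), where 1.45%, 3.19% and 7.98% of all genes tested were called higher. Since this background differs between the genotypes, no order is read from these counts or from those of the single lists. Besides the JAZ genes, the allene oxide synthase gene AOS1 (Solyc04g079730) rose in all genotypes, the log2 differences in edgeR being 1.83 ± 0.31 (SE, adjusted p = 0.00354) in Stupicke, 4.10 ± 0.32 (adjusted p = 9.10e-07) in Criollo and 3.27 ± 0.30 (adjusted p = 3.84e-06) in Micro-Tom. It averaged at most 8.74 TPM in MeJA-primed and at most 0.848 TPM in mock-primed seeds, under the level the rule asked for. AOS2 and the acyl-CoA oxidase ACX1 passed the test in no genotype, and JAR1, which makes the active isoleucine conjugate, in Micro-Tom alone, at 0.85 ± 0.16 (SE, adjusted p = 0.0024).

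Of 7 genes for jasmonate perception and transcription outside the set, 1 was called higher in MeJA-primed Stupicke, 4 in Criollo and 5 in Micro-Tom. The central activator MYC2 (Solyc08g076930) averaged 36.2 TPM in MeJA-primed and 20.8 TPM in mock-primed Stupicke, 39.8 and 24.4 TPM in Criollo, and 85.6 and 34.6 TPM in Micro-Tom. It was called in all genotypes, with log2 fold changes of 0.82 ± 0.14 in Stupicke, 0.84 ± 0.14 in Criollo and 1.28 ± 0.14 in Micro-Tom (SE, edgeR adjusted p = 0.00522, 0.00229 and 3.11e-05), but its ratio stayed under 1.8 in Stupicke and Criollo. The receptor gene COI1 was the only listed gene called lower, in Stupicke, at -0.46 ± 0.11 (SE, adjusted p = 0.0491). The co-repressor gene NINJA was called in Micro-Tom alone and MED25 in no genotype. These differences between genotypes in the number of calls were not tested.

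Of 9 glycoalkaloid genes tested outside the set, 2 were called higher in MeJA-primed Stupicke, 5 in Criollo and 4 in Micro-Tom, and none lower. GAME11 and GAME17 were called in all genotypes, whereas GAME1, GAME4, GAME9 and GAME12 were called in none. The log2 difference of GAME11 was 0.75 ± 0.18 (SE, edgeR adjusted p = 0.0462) in Stupicke, 2.37 ± 0.19 (adjusted p = 9.86e-07) in Criollo and 1.47 ± 0.18 (adjusted p = 7.87e-05) in Micro-Tom. In the mevalonate and sterol list, squalene synthase (Solyc01g110290) rose in all genotypes, with 58.3 TPM in MeJA-primed and 13.9 TPM in mock-primed Stupicke, 36.4 and 21.5 TPM in Criollo, and 71.0 and 22.7 TPM in Micro-Tom, and missed the set through its ratio in Criollo, while the 2 reductase genes HMGR1 and HMGR2 were called in no genotype. Of 4 wound and defence output genes tested, 2 were called higher in Stupicke, 3 in Criollo and 4 in Micro-Tom. All 4 were close to 0 in mock-primed seeds, with a mean of at most 0.126 TPM, and none met the mock level of the rule.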

How the data were processed

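Mature seeds of 3 tomato genotypes, MeJA-primed or mock-primed, gave 18 RNA libraries in 6 groups of 3 biological replicates. The authors quantified reads with Salmon 1.2 against the SL4.0 genome and ITAG4.0 gene models and deposited estimated counts per gene and TPM values, which they scaled by transcript length and library total. Library totals of 18807931 to 20560389 estimated reads gave at least 50 counts in every mock library for all but 21 of the 68 genes. The genes were chosen by the TPM rule given above, and the genes, lists and tests were chosen with earlier results of these data known. Estimated counts were rounded and tested with edgeR 4.0.16 (TMM scaling, filterByExpr, quasi-likelihood test, Benjamini-Hochberg adjustment over 19914 genes, threshold 0.05) in a single model of all 6 groups without a replicate term. Genotypes were compared on the mean of their MeJA and mock groups. DESeq2 1.42.0, limma 3.58.1 on log2(TPM + 1) and log2(TPM + 0.1), other scalings, filters and thresholds, a replicate block and leaving out each library were alternatives. Scripts were tested on simulated data. R 4.3.3, Python 3.11.15, numpy 2.4.6, pandas 2.3.3 and matplotlib 3.10.9 were used. All 68 genes were described, with fuller values for those with the largest or smallest ratios, the jasmonate genes, and the genes with the largest genotype differences in each direction. Gene annotations are ITAG texts, chromosomes are read from identifiers, and JAZ, GAME, MYC and MTB names of the pathway lists are from general knowledge of tomato. Columns of the authors' own comparisons were not used, and promoter sequences were not analysed here.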

Additional observations from a re-analysis of the deposited data

How the results depend on the processing

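The number of genes depended on the thresholds. It was 39 with a mock minimum of 5 TPM and 134 with a ratio of at least 1.5, and 65 to 73 with any single library left out. With limma, genes higher in Stupicke than in Criollo were 16 (log2(TPM + 1)) or 15 (log2(TPM + 0.1)) instead of 28, and other pathway genes called higher in MeJA-primed Criollo 12 or 13 instead of 20. In mock libraries alone, 22 instead of 34 genes were lower in Criollo than in Micro-Tom. In MeJA libraries alone, 11 instead of 28 genes were higher in Stupicke than in Criollo, 8 instead of 16 higher in Stupicke than in Micro-Tom, and 8 instead of 14 higher in Criollo than in Micro-Tom. The genes lower in Criollo than in Micro-Tom were 34 there as well, and those lower in Stupicke than in Micro-Tom 25 instead of 31. The cause of these changes was not tested. Leaving out each library gave 46 to 65 MeJA calls in Stupicke, 53 to 64 in Criollo and 57 to 66 in Micro-Tom. For genotypes it gave 24 to 28 genes with a higher and 16 to 21 with a lower level in Stupicke than in Criollo, 15 to 18 and 31 to 33 against Micro-Tom, and 12 to 18 higher and 30 to 37 lower in Criollo than in Micro-Tom. Same-numbered replicates did not deviate together throughout, with correlations from -0.47 within Criollo to 0.44 between mock-primed Stupicke and Criollo. Within Stupicke they were 0.40, -0.02 and 0.28. With this mixed picture the numbers were not taken as pairs. With a replicate block, 58, 58 and 60 MeJA calls were made in Stupicke, Criollo and Micro-Tom, and 25 genes had a higher and 17 a lower level in Stupicke than in Criollo. For the 12 genotype differences with the largest size in each direction of each pair, no alternative run changed the direction, 317 values kept their side of the threshold and 7 lost it, 6 of them for Solyc07g056470. The other genotype differences given, of JAZ1 and Solyc07g016170, are not covered by these counts. Depth limits the genes of low mock level most, since 21 of the 68 had under 50 counts in some mock library.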
